A study of Mus musculus with 6 samples.

Results

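Immediate-early response genes were examined in tumours that grew in mice lacking tenascin-C and in mice with it. The 10 genes were Fos, Fosb, Jun, Junb, Egr1, Atf3, Ier2, Ier3, Dusp1 and Nr4a1, taken as a named list and read from every probe set that the platform annotation assigns to 1 of these symbols alone. This gave 11 of the 45037 non-control probe sets, with 2 for Jun and 1 for each other gene. The tumours came from GLMT1 cells, short for GRS/A Lung Metastasis Tumor 1, a mouse line put under the back skin of male mice. TNKO hosts were GRS/A-TgH(TnC) mice, labelled tenascin-C-deficient (3 tumours), and WT hosts were GRS/A mice, labelled wild type (3 tumours). All hosts were 8 weeks old at the start and 10 weeks old in the sample labels, and the labels call the tumours biological replicates, with 3 mice a group. The labels give the altered gene for the host alone, 1 cell line was used, and an excised tumour holds RNA of both host and tumour cells.

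Immediate-early genes are switched on within minutes by growth factors, cytokines, stress or tissue handling, without new protein synthesis. Fos, Fosb, Jun and Junb encode subunits of the dimeric transcription factor AP-1, and Atf3 encodes a related leucine zipper protein. Egr1 is a zinc finger transcription factor and Nr4a1 an orphan nuclear receptor. Ier2 and Ier3 are small response proteins, Ier3 with a part in cell survival under stress, and Dusp1 is the phosphatase that turns MAP kinases off again.

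Promoter sequence was at hand in RefSeq's table (GRCm38.p6) for 8 of the 10 genes. The 250 bases before the start are printed for the 3 genes whose TNKO and WT values did not overlap (Dusp1, Atf3 and Ier3) and for Fos, the founding member, whose values did. Capitals mark TGACG, the core of the cAMP response element, on either strand, the TATA box TATAAA and the NF-kB site. The windows are chr17:26508473-26508722 on the minus strand for Dusp1, chr1:191183334-191183583 on the minus strand for Atf3, chr17:35821463-35821712 on the plus strand for Ier3 and chr12:85473640-85473889 on the plus strand for Fos.
Dusp1: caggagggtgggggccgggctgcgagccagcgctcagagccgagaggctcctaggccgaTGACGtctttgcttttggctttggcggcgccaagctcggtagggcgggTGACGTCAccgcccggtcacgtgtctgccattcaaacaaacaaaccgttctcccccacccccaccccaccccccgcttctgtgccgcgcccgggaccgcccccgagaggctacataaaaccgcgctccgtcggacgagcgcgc
Atf3: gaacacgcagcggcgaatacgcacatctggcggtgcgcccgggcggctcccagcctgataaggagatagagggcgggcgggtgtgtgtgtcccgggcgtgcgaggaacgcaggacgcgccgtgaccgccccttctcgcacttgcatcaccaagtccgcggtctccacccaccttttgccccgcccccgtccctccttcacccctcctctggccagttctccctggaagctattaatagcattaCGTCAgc
Ier3: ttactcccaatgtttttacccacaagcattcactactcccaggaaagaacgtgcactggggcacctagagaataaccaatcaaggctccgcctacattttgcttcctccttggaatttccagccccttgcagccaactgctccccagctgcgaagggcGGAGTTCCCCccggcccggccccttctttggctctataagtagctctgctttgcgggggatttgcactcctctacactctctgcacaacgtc
Fos: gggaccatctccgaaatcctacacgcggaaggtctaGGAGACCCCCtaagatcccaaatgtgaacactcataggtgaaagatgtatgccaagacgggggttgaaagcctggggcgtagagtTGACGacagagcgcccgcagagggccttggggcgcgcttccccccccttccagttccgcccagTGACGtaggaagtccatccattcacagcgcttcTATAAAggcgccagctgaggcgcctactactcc

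The TGACG core was found in 6 of the 8 windows (Fos, Fosb, Junb, Atf3, Dusp1 and Nr4a1), and in 17.8% of all 32851 windows of this length. Dusp1 held the full element TGACGTCA, with first base 143 before the start, which 1.55% of windows hold and which overlaps 2 of its TGACG matches. Fos held TATAAA with its first base 33 before the start and TGACG at 66 and 129 before it, and Ier3 an NF-kB site at 92 before it. TATAAA was in 12.4% of all windows and the NF-kB site, which Fos and Fosb also matched, in 3.9%. The GC box GGGCGG was in 7 of the 8 windows and in 32.7% of all. A GC box match overlapped the NF-kB site in Ier3 and the Egr site in Fosb and Nr4a1. The AP-1 site TGANTCA was in 0 of the 8 (6.75% of all), the CArG box in 0 (1.47%) and the Egr site GCGNGGGCG in 2, Fosb and Nr4a1 (4.7%). Both strands were searched, and a match is a description of letters in the window.

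The deposited log2 values differ very little between arrays, so they are given as the mean over the 6 tumours and as deviations from it in micro-units of 1e-06 log2. The median probe set spanned 5.46 micro-units over the 6 tumours. Spans of the 11 immediate-early probe sets ran from 7.29 micro-units for the dimmer Jun probe set to 13737 for Ier3, so differences cannot be read as folds or set against each other between genes. Differences are therefore also given in residual SDs, the SD of that probe set within the groups. Tnc, the gene altered in the host, differed by -0.20 on the log2 scale in its brighter probe set (adjusted p = 0.0537), and its values did not overlap between the groups. With 3 tumours a group, an exact permutation test of 1 value cannot give a p under 0.1.

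Every TNKO value of Dusp1, Atf3 and Ier3 lay below every WT value. Their differences were -6.58, -2.62 and -2.57 residual SDs, and the other 7 genes overlapped between the groups. Of the 11 probe sets 0 passed adjustment over all probe sets with limma, where 0.175% of all passed. At an unadjusted p under 0.05 there were 3, all lower, against 20.3% of all probe sets in both directions and 10.8% lower. Non-overlapping values were seen in 3 of 11, all lower, against 28% of all probe sets in both directions and 13.8% lower. In both directions together these shares were near those of all probe sets, and in the lower direction above them, a difference that was not tested. In means, 8 of the 10 genes were lower in TNKO tumours, against 42.4% of 18193 genes, and 10 of 10 with quantile normalization or array medians subtracted, which left 97.7% and 98.7% of all genes lower. The median difference of the 10 was -0.94 residual SDs, against 0.28 for all genes.

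**Figure D1:**
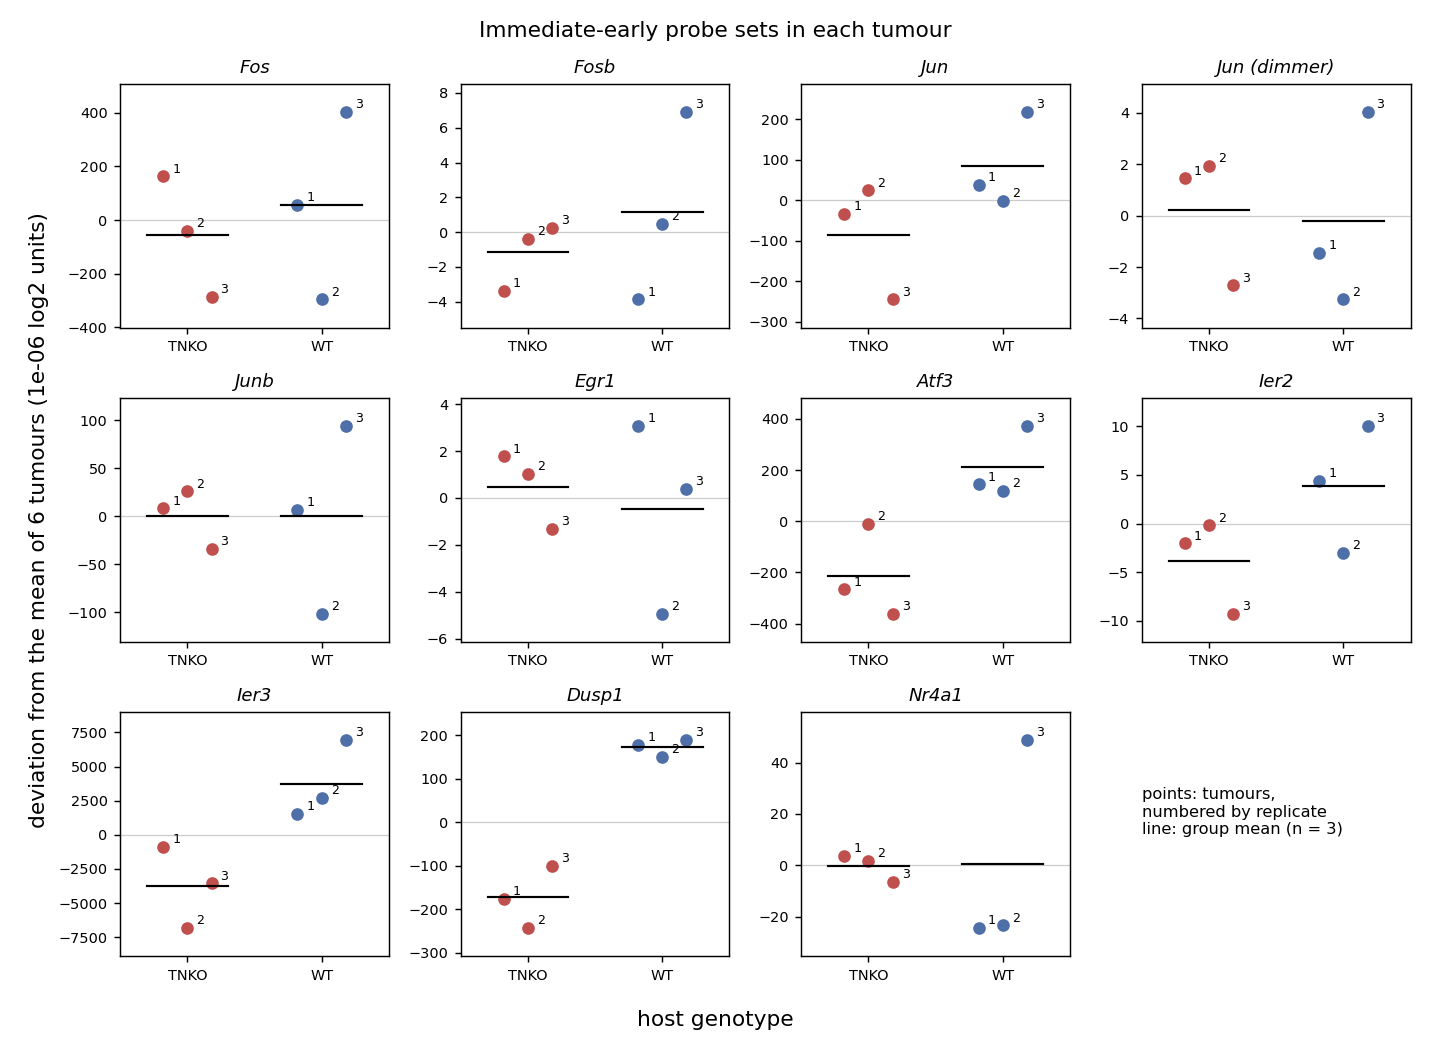
Deviation of each immediate-early probe set from its mean over the 6 tumours, in 1e-06 log2 units, with TNKO tumours on the left of each panel and WT tumours on the right; points are tumours, numbered by replicate, and lines are group means (n = 3). Dusp1, Atf3 and Ier3 do not overlap between hosts, and WT tumour 3 is the highest point in 10 of the 11 panels.

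Dusp1 (probe set 1448830_at, mean level 9.63) deviated by -176, -242 and -99.5 micro-units in TNKO tumours 1, 2 and 3, against 178, 150 and 189 in WT tumours 1, 2 and 3. The SD was 71.4 micro-units among TNKO tumours and 19.8 among WT tumours, which lay close together, and the gap between the groups was wider than either spread. The difference was -345 micro-units (SE 39.97, n = 3 each, unadjusted p = 0.000531, adjusted p = 0.0679). It missed the threshold over all probe sets. It passed when only probe sets above the median level were tested (adjusted p = 0.0477), with the same difference. At that setting 285 of 22518 probe sets passed, against 79 of 45037 in the main fit. The adjusted p of Dusp1 was 0.155 with the replicate number as a block and 0.124 without moderation. After quantile normalization the difference was -1037 micro-units (adjusted p = 0.588), and with array medians subtracted it was -1109 (adjusted p = 0.99). Both scalings shifted nearly all genes downwards. With each tumour left out in turn the difference ran from -381 to -310 micro-units.

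Atf3 (1449363_at, mean level 7.84) deviated by -266, -9.62 and -360 micro-units in TNKO tumours 1, 2 and 3, against 145, 119 and 372 in WT tumours 1, 2 and 3. TNKO tumour 2 was nearest to the WT values and WT tumour 3 farthest above them. The difference was -424 micro-units (SE 123, unadjusted p = 0.0214, adjusted p = 0.177).

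Ier3 (1419647_a_at, mean level 9.48) had the widest span of the 10 genes. It deviated by -861, -6800 and -3544 micro-units in TNKO tumours 1, 2 and 3, against 1559, 2709 and 6937 in WT tumours 1, 2 and 3. TNKO tumour 2 was the lowest and WT tumour 3 the highest. The difference was -7470 micro-units (SE 2216, unadjusted p = 0.0227, adjusted p = 0.182). Without WT tumour 3 the unadjusted p was 0.0570 for Atf3 and 0.0532 for Ier3, with differences of -343 and -5869 micro-units, so their differences remained below 0. Leaving out TNKO tumour 3 also raised the unadjusted p of both above 0.05 (0.0598 and 0.0599), as did leaving out TNKO tumour 1 for Atf3 (0.0676) and TNKO tumour 2 for Ier3 (0.0569).

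**Figure D2:**
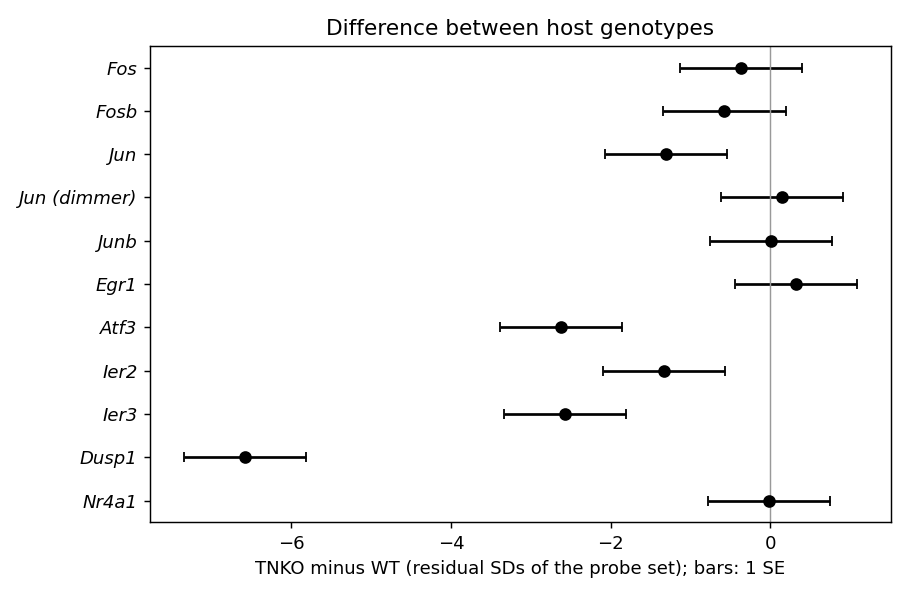
TNKO minus WT for each immediate-early probe set, in residual SDs of that probe set, with bars of 1 SE (n = 3 each). Dusp1 stands at -6.58, Atf3 and Ier3 near -2.6, and the other 8 probe sets between -1.33 and 0.32.

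Among the AP-1 subunits the groups overlapped in all 5 probe sets. Fos (1423100_at, mean level 8.65) deviated by 164, -41.0 and -287 micro-units in TNKO tumours 1, 2 and 3, against 56.9, -296 and 404 in WT tumours 1, 2 and 3. Its highest and lowest values were both WT tumours, and the difference of -110 micro-units (SE 225, adjusted p = 0.836) was under the spread within either group. Jun (1417409_at, mean level 8.95) deviated by -33.7, 24.2 and -245 micro-units in TNKO tumours 1, 2 and 3, against 38.3, -2.04 and 218 in WT tumours 1, 2 and 3. TNKO tumour 3 was low and WT tumour 3 high, and the difference was -170 micro-units (SE 99.2, adjusted p = 0.414).

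The other Jun probe set (1448694_at, mean level 8.32) did not share the sign of that difference. It deviated by 1.45, 1.94 and -2.71 micro-units in TNKO tumours 1, 2 and 3, against -1.46, -3.26 and 4.03 in WT tumours 1, 2 and 3, a difference of 0.456 (SE 2.48, adjusted p = 0.947). In both Jun probe sets TNKO tumour 3 was the lowest of the TNKO tumours and WT tumour 3 the highest of all 6.

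Junb (1415899_at, mean level 9.45) had nearly equal group means, with a difference of 0.167 micro-units (SE 55.4, adjusted p = 0.999). The TNKO tumours lay at 8.24, 26.0 and -34.0 micro-units and the WT tumours at 6.81, -101 and 94.1, so all TNKO values fell between WT tumours 2 and 3. Fosb (1422134_at) had a mean level of 6.15, under the median of 6.57 of each array, and its 6 values spanned 10.8 micro-units. It lay at -3.36, -0.402 and 0.248 micro-units in TNKO tumours and at -3.87, 0.471 and 6.92 in WT tumours, a difference of -2.35 (SE 3.12, adjusted p = 0.733).

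Egr1 (1417065_at, mean level 8.39) was the only gene of the 10 that did not have its highest value in WT tumour 3. It deviated by 1.77, 1.02 and -1.32 micro-units in TNKO tumours 1, 2 and 3, against 3.07, -4.93 and 0.391 in WT tumours 1, 2 and 3. The WT tumours enclosed the TNKO tumours, and the difference was 0.977 micro-units (SE 2.37, adjusted p = 0.865).

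Nr4a1 (1416505_at, mean level 7.36) had 1 WT tumour far above the other 5. TNKO tumours stood at 3.78, 1.79 and -6.55 micro-units, against -24.3, -23.5 and 48.8 in WT tumours 1, 2 and 3. The TNKO values lay close together between 2 low WT tumours and WT tumour 3, and the difference was -0.648 micro-units (SE 22.8, adjusted p = 0.993). Without WT tumour 3 the difference was 23.6 micro-units (unadjusted p = 0.00473, adjusted p = 0.183), higher in TNKO tumours. It was also above 0 without TNKO tumour 3, at 2.46, so the sign of this gene's difference was not settled. Ier2 (1416442_at, mean level 9.09) deviated by -2.01, -0.193 and -9.24 micro-units in TNKO tumours, against 4.41, -2.99 and 10.0 in WT tumours, a difference of -7.63 (SE 4.38, adjusted p = 0.406) with WT tumour 2 among the TNKO values.

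WT tumour 3 held the highest value of 9 of the 10 genes, while it held the highest value of 18.5% of all 18193 genes. TNKO tumours 1, 2 and 3 held the highest value of 0 of the 10, against 19.9%, 20.6% and 17.2% of all genes. The lowest values were spread over TNKO tumours 2 (2 genes) and 3 (3 genes) and WT tumours 1 (2 genes) and 2 (3 genes). Averaged over the 10 genes, each set to a mean of 0 and an SD of 1 over the 6 tumours, TNKO tumours 1, 2 and 3 stood at -0.195, -0.198 and -0.784 and WT tumours 1, 2 and 3 at 0.218, -0.386 and 1.34. With WT tumour 3 left out, 5 of the 10 genes were lower in TNKO tumours, against 42.8% of all genes, and Fos, Fosb and Nr4a1 turned higher. Leaving out WT tumour 2, the lowest in Fos, Junb and Egr1, gave 10 of 10 lower. With TNKO tumour 3 left out, 6 were lower.

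**Figure D3:**
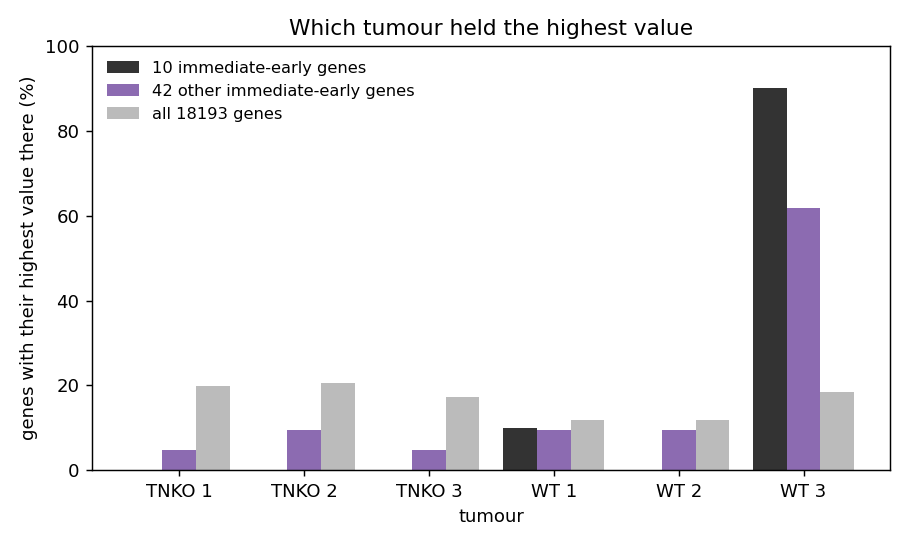
Share of genes, in percent, whose highest value lay in each of the 6 tumours, for the 10 immediate-early genes, for 42 other immediate-early genes and for all 18193 genes; TNKO tumours stand left of WT tumours. WT tumour 3 holds 90% of the 10 genes and 61.9% of the 42, against 18.5% of all genes.

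**Figure D4:**
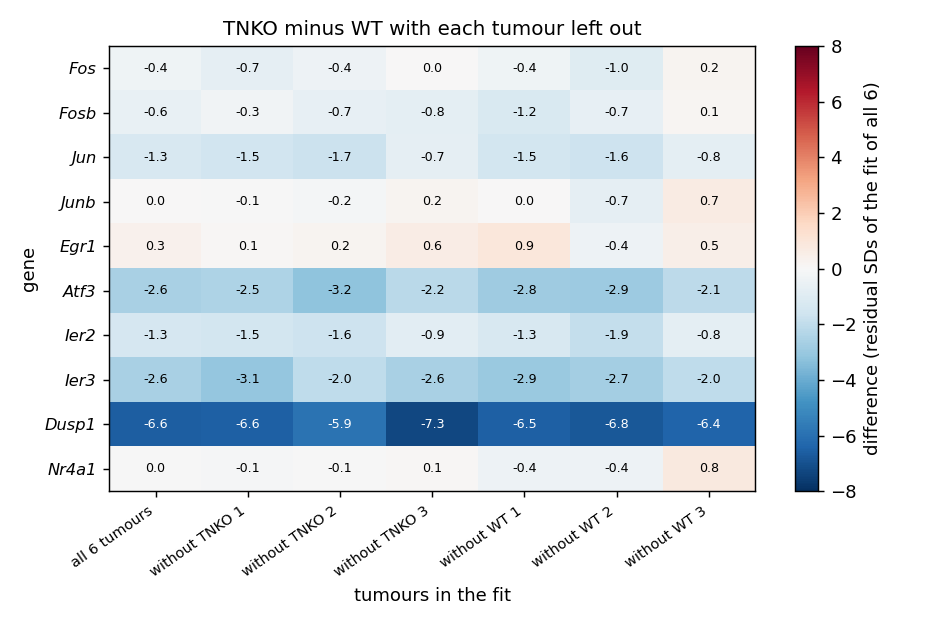
TNKO minus WT of each of the 10 genes in the fit of all 6 tumours and with each tumour left out in turn, in residual SDs of the fit of all 6; blue is lower in TNKO tumours and red higher. Dusp1, Atf3, Ier3, Jun and Ier2 are lower in every column, and Fos, Fosb, Junb and Nr4a1 are above 0 without WT tumour 3.

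Other values moved with WT tumour 3 and with TNKO tumours 1 and 2. Of the array's probe sets for mouse control genes (18S RNA, beta-actin, Gapdh, pyruvate carboxylase and the transferrin receptor), WT tumour 3 gave the highest value in 4 of 5 for the 3' ends and in 4 of 5 for the 5' ends. In TNKO tumours 4 of those 5 were lower at either end, 4 at the 5' ends and 2 at the 3' ends with an unadjusted p under 0.05. Of 6 probe sets for the middle of these genes WT tumour 3 was the highest in 3. In TNKO tumours 4 of the 6 were lower, all 4 at that p, and 2 were higher, 1 at that p. Of the 18 hybridisation controls, which hold no mouse RNA, TNKO tumour 2 was the highest in 18 and WT tumour 3 the lowest in 12. All 18 had a higher TNKO mean, and in 13 of them the unadjusted p was below 0.05. Of all probe sets, 20.3% fell below that p, counting both directions, a share that also stands beside the mouse control counts. The 18 read only bioB, bioC, bioD and cre, each with several probe sets on the same 6 arrays. They are therefore not 18 separate observations. TNKO tumour 2 was also the lowest in Dusp1 and Ier3. Of 8 endothelial markers TNKO tumour 1 was the highest in 8 and WT tumour 3 the lowest in 6. The mean was higher in TNKO tumours in 8 of 8, against 57.6% of all genes, and their summed level ran from 56.917 to 56.918 in TNKO tumours, against 56.916 to 56.917 in WT tumours. Adipocyte markers, with 6 of 8 listed genes measured, had TNKO tumour 1 highest in 6 of 6 and WT tumour 3 lowest in 5. All 6 were higher in TNKO tumours, with a summed level of 43.1 to 46.2, against 41.8 to 43.9 in WT tumours. Fibroblast markers had WT tumour 3 lowest in 6 of 8, with 6 of 8 higher in TNKO tumours and a summed level of 89.693 to 89.703, against 89.679 to 89.696 in WT tumours. The other 2, Dcn and Pdgfrb, were lower in TNKO tumours and highest in WT tumour 3. Dcn, at -45.7 micro-units (SE 8.49), was the only 1 of the 8 at an unadjusted p under 0.05. Most of the range of the fibroblast sum was that of Lum alone, at 9.489 in WT tumour 3 and 9.513 in TNKO tumour 2. A summed level follows its widest genes and is no measure of the whole list. The part of these values in the immediate-early result was not tested, and in whole tumours fewer cells of a type and less RNA per cell cannot be told apart.

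A wider list of 42 genes of the same response, such as the growth regulator Myc and further Fos, Jun, Egr, Nr4a and Klf family members, was lower in mean in 33 of 42, against 42.4% of all genes. At an unadjusted p under 0.05 there were 11 lower and 1 higher, against 8.43% of all genes lower and 9.99% higher, and 0 passed adjustment. Those 12 became 5 without TNKO tumour 2, 7 without TNKO tumour 3, 8 without moderation, 3 after quantile normalization and 0 with array medians subtracted. The count was 12 without WT tumour 3 and without WT tumour 1. It was 11 without WT tumour 2, 10 without TNKO tumour 1 and 13 with the replicate block. In 26 of the 42 the highest value lay in WT tumour 3, and TNKO tumour 2 the lowest in 21, against 14.7% of all genes for that tumour. Without WT tumour 3, 29 of the 42 were lower, and without TNKO tumour 2, 31. The smallest unadjusted p was that of Gadd45a, a growth arrest gene induced by DNA damage, at -589 micro-units (SE 80.9, adjusted p = 0.0758). Nfkbia, the inhibitor of NF-kB, differed by -10.7 (SE 1.93, adjusted p = 0.102) and Ccn2, a matricellular growth factor, by -183 (SE 36.5, adjusted p = 0.112).

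**Figure D5:**
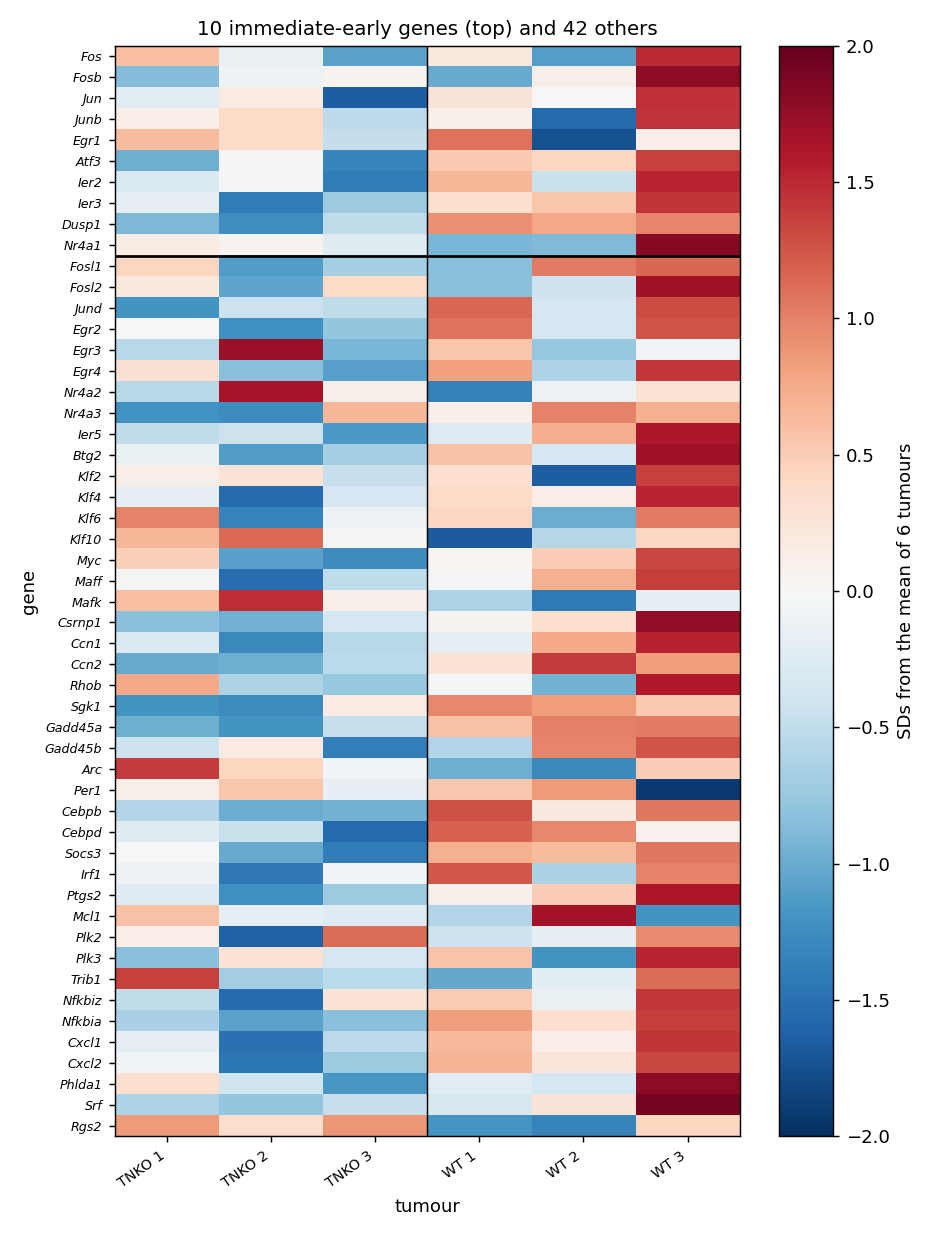
Values of the 10 immediate-early genes (above the horizontal line) and of 42 other immediate-early genes in each tumour, in SDs from the gene's mean over the 6 tumours, with TNKO tumours left of the vertical line and WT tumours right of it. Red is above and blue below the mean, and WT tumour 3 is the highest in 9 of the 10 and in 26 of the 42.

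Feedback inhibitors of MAP kinase signalling and of the messages were lower in 11 of 19 genes, against 42.4% of all genes. At an unadjusted p under 0.05 there were 3, all lower, against 18.4% of all genes in both directions, and 0 passed adjustment. Spry2, a sprouty inhibitor of receptor tyrosine kinase signalling, differed by -573 micro-units (SE 128, adjusted p = 0.127), Spred2, its relative, by -14.7 (adjusted p = 0.187) and Dusp10, a phosphatase of stress-activated kinases, by -88.1 (adjusted p = 0.191). Upstream kinases and resting transcription factors were read for 18 of 24 genes and were lower in 10, against the same 42.4%. Of the 18, 4 had an unadjusted p under 0.05, 3 lower and 1 higher, against 18.4% of all genes in both directions. Elk3, a partner of serum response factor, differed by -14.5 micro-units (SE 1.56, adjusted p = 0.0661) and the MAP kinase kinase Map2k1 by -6.97 (adjusted p = 0.145). Mapkapk2, a kinase downstream of p38, was on the other side at 54.1 (SE 9.02, adjusted p = 0.0939).

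Genes long used as AP-1 or Egr1 readouts were lower in 14 of 18 measured genes, against 42.4% of all genes. At an unadjusted p under 0.05 there were 7, all lower, against 8.43% of all genes lower, and 1 passed adjustment, against 0.121% of all genes. This was F3, tissue factor, which fell by 1520 micro-units (SE 96.3, adjusted p = 0.0465). The call was lost with any 1 tumour left out (adjusted p = 0.0697 to 0.141), while the difference ran from -1608 to -1452 micro-units. Cd44, a hyaluronan receptor, differed by -41.9 (adjusted p = 0.0607) and the collagenase gene Mmp1a by -6.43 (adjusted p = 0.0607), neither past the threshold. The mean level of Mmp1a was 5.48, far under the median of 6.57 of each array.

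Stress genes outside the immediate-early class were counted as a comparison. Integrated stress response genes around Atf3 were lower in 8 of 13, against 42.4% of all genes. At an unadjusted p under 0.05 there were 6, all lower, against 8.43% of all genes lower, and the highest value was that of WT tumour 3 in 8, against 18.5% of all genes. The mTOR inhibitor gene Ddit4 differed by -141 micro-units (adjusted p = 0.123), the endoplasmic reticulum chaperone gene Hspa5 by -5.86 (adjusted p = 0.176) and the response's transcription factor Atf4 by -32.0 (adjusted p = 0.186). Heat shock genes were higher in 9 of 12 measured genes, against 57.6% of all genes. At an unadjusted p under 0.05 there were 0 of the 12, against 18.4% of all genes in both directions. The highest value lay in WT tumour 3 in 6, against 18.5% of all genes. Hspa8, a constitutive chaperone, differed by 3.67 micro-units (adjusted p = 0.305), Hspe1, a mitochondrial co-chaperone, by 2.5 (adjusted p = 0.306) and Hspb1, a small heat shock protein, by -21.6 (adjusted p = 0.312).

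Among 9087 other genes with a mean above the median of all genes, those with a profile over the 6 tumours closest to the mean profile of the 10 were Tollip, Irf7, Wwc2, Kdm2a and Rit1. Their Euclidean distances to it, with each gene scaled to an SD of 1, were 0.649, 0.657, 0.678, 0.687 and 0.691, while the 10 genes themselves lay at 0.808 (Ier2) to 2.27 (Egr1). Irf7, an interferon regulatory factor, deviated by -28.5, -18.6 and -49.5 micro-units in TNKO tumours 1, 2 and 3, against 15.6, -30.9 and 112 in WT tumours 1, 2 and 3. With 6 tumours and this many candidates, close profiles are easily found, and the likeness is a description.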

How the data were processed

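RNA of 6 tumours was measured on 1-colour Affymetrix arrays. Per the labels' protocols, the inoculum was 100 microlitres with 1e+07 cells per ml, and 100 ng of total RNA went into labelling. In the deposited table the authors give a normalized value for each of 45101 probe sets on each array, taken as log2 from its range. The submitters' processing notes name R 2.7.2. The method of summarization, of normalization and the logarithm's base were not given in the sources used here. Arrays have no read depth, and the precision is limited by their number.

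Tests left out 64 control probe sets. Probe sets were named from the platform annotation (2016), checked by gene identifier against RefSeq, which changed 0 of the 11 member symbols. For a gene with several, the probe set with the highest mean stood for it. TNKO minus WT was tested with limma 3.58.1 in R 4.3.3 (lmFit, eBayes), two-sided, with p-values adjusted by Benjamini-Hochberg over 45037 probe sets and a threshold of 0.05. The fit was tested on simulated data. The genes and lists were chosen with earlier results of these data known. Named were all member probe sets, Tnc, the 3 genes of each pathway list with the smallest p, and the 5 closest profiles. Myc was named outside this rule, as an example of its list.

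Alternatives were quantile normalization, array medians subtracted, a trend, robust or no moderation, array weights, only brighter probe sets, a replicate block, each tumour left out, and averaging a gene's probe sets. The same settings for the wider list, apart from the last and the brighter probe sets, were added after the values were seen.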

Additional observations from a re-analysis of the deposited data

How the results depend on the processing

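Limma called 79 probe sets, 0 after quantile normalization (591 at an unadjusted p under 0.05), 2 without moderation, 285 among brighter probe sets only, and 0 to 73 with 1 tumour left out (0 without WT tumour 1 or 3, with 7144 and 6807 at that p). The replicate block gave 0 (7816 at that p), and tumours with the same number did not deviate together (correlations of 0.0289, -0.0157 and 0.00531), so the numbers were not taken as pairs. Of the 11 immediate-early probe sets, 3 had an unadjusted p under 0.05, against 2 after quantile normalization, 0 with medians subtracted, 1 with the replicate block and 1 to 3 with 1 tumour left out. The 8 lower genes became 5 to 10 with 1 tumour left out. Both scalings shifted all probe sets, with TNKO tumour 3 apart from the other arrays: its median was 6.5698, against 6.5674 to 6.5676 in the other 5, and its array weight the lowest at 0.758. They gave a median difference of -538 and -764 micro-units, with 97.7% and 98.7% of all genes lower and 10 of the 10 genes lower. Junb then differed by -710 and -764 and Egr1 by -877 and -763, and array weights gave Nr4a1 2.69. With 1 tumour left out, Fos ran from -285 to 64.5, Fosb from -4.87 to 0.527, Junb from -50.4 to 47.3, Egr1 from -1.24 to 2.76 and Nr4a1 from -13.0 to 23.6. Jun by its brighter probe set, Ier2, Atf3, Ier3 and Dusp1 were lower in all 15 alternatives. Many of these could not change a sign. A trend, robust or no moderation, the replicate block and the brighter probe sets alone leave each difference as it was. Both scalings lowered nearly all genes, so the sign was open mainly with array weights or a tumour left out. The adjusted p of Dusp1 ran from 0.0477 to 0.99, that of Atf3 from 0.143 to 0.99 and that of Ier3 from 0.147 to 0.99. The wider list was lower in 29 to 42 of its 42 genes, and its 12 genes at an unadjusted p under 0.05 became 0 to 13. The cause of these changes was not tested, apart from the shift that the scalings apply to all probe sets.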

Other observations

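Markers of other cell types that a subcutaneous tumour can hold were counted in the same fit, and none passed adjustment. Skeletal muscle markers were lower in 10 of 10 genes, against 42.4% of all genes. Their summed level was 65.4 to 71.1 in TNKO tumours and 69.7 to 71.3 in WT tumours. TNKO tumours 1 and 2 were the low ones, at 65.4 and 66.1, while TNKO tumour 3 stood at 71.1 among the WT tumours, and 0 of the 10 genes had their highest value in WT tumour 3. Hair and epidermis markers were lower in 4 of 8, against the same 42.4%. Their summed level was 55.4 to 65.2 in TNKO tumours and 55.5 to 55.6 in WT tumours. The high sum was that of TNKO tumour 3 alone, and TNKO tumours 1 and 2 stood at 55.4 and 55.7. WT tumour 3 held the highest value of 4 of the 8 (Krt14, Krt10, Lor and Krt1), against 18.5% of all genes. TNKO tumour 3 held that of 4, against 17.2% of all genes. The hair keratin-associated protein gene Krtap8-1 had a log2 level of 12.6 in TNKO tumour 3, against 5.95 to 6.15 in the other 5 tumours, and the hair follicle keratin gene Krt25 9.21, against 6.12 to 6.21. Of both lists 0 genes had an unadjusted p under 0.05, against 18.4% of all genes. Macrophage markers were higher in 7 of 8, 1 of them at an unadjusted p under 0.05, and neutrophil markers in 6 of 6, 3 of them at that p, against 57.6% of all genes higher and 9.99% higher at that p. TNKO tumour 1 held the highest value of 5 of the 6 neutrophil markers. Of the 3 neutrophil markers at that p, Mmp8 and Elane had mean levels of 6.28 and 6.53, under the median of 6.57 of each array. Ly6g and Retnlg, also among the 8 listed, were not measured. Simple epithelial markers were lower in 5 of 8, against 42.4% of all genes, with 1 higher at that p.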
